A study of Mus musculus with 2 samples.

Results

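The genes described here encode the classical ligands and receptors of axon guidance: semaphorins, plexins and neuropilins, ephrins and Eph receptors, Slits and Robo receptors, and netrins with their receptors. They were taken by symbol from the protein-coding genes of GENCODE release M21, which gave 69 members among 21938 genes, 35 of them ligands and 34 receptors. Open chromatin was mapped by DNase-seq, which sequences the ends of DNA cut by the nuclease DNase I where nucleosomes and bound proteins leave it exposed. The tissue was left cerebral cortex of male B6CASTF1/J mice aged 2 months, first-generation offspring of a cross between C57BL/6J and CAST/EiJ. The series held 1 group of 2 libraries, biological replicates 1 and 2, each from its own male according to the labels, although their donor record is one for the strain. No other tissue, age, sex or treatment was measured, so the members were described beside all protein-coding genes of the same 2 libraries, without a test.

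Guidance ligands steer growing axons by attraction or repulsion, and the same molecules act in the mature cortex at synapses, on glia and on vessels. Semaphorins signal through plexins, and most of the secreted class 3 members use neuropilins as co-receptors, with Sema3e an exception that binds plexin-D1 directly. Ephrins are held on the cell surface and bind Eph receptor tyrosine kinases on neighbouring cells, with signalling in both directions. Slits bind Robo receptors, while netrin-1 binds DCC, which mediates attraction, and the UNC5 receptors, which mediate repulsion. The membrane-anchored netrin-G proteins bind other partners, the netrin-G ligands.

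Promoter windows reached 500 bp to either side of a gene's annotated transcription start sites (TSSs), and a promoter counted as accessible if a peak of replicate 1 and one of replicate 2 fell in them. The height of a peak is the authors' own value, and how heights were scaled between the libraries is not stated, so they were ranked within a replicate or summarised as the geometric mean of both. Replicate 1 had 63928 peaks and replicate 2 had 76440, with median heights of 0.915 and 0.689. How deeply they were sequenced is unknown. The tissue label was checked by promoter peaks in both replicates. They were found at 4 of 5 neuronal, 3 of 6 cortical excitatory, 0 of 3 inhibitory, 4 of 5 astrocyte 2 of 4 oligodendrocyte, 1 of 2 oligodendrocyte precursor and 1 of 4 meningeal marker genes. None was found at the markers of microglia (0 of 4), endothelium (0 of 4), mural cells (0 of 3), choroid plexus (0 of 3) or other tissues (0 of 7). Over all genes the share was 56.2%. The marker sets without peaks had median CpG observed over expected, defined below, from 0.268 (choroid plexus) to 0.402 (endothelium). Among non-member genes under 0.4 only 7.54% were accessible, so these absent peaks say little about the tissue. In replicate 1 taken by itself, peaks stood at 6 of 6 excitatory and 3 of 3 inhibitory markers, and also at 1 of 4 endothelial (Flt1, 0.410), 1 of 3 mural (Rgs5, 0.419) and 1 of 3 choroid plexus (Kl, 0.410) markers. A bulk library sums over all cells of the tissue, so a low peak from few cells and one from less accessible DNA per cell cannot be told apart.

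Most guidance genes had an open promoter in the adult cortex. Both replicates had a promoter peak at 49 of the 69 members, or 71.0%, against 56.2% of all protein-coding genes. Taken by itself, replicate 1 had one at 62 members (89.9%), against 61.6% of all genes, and replicate 2 at 49 members (71.0%), against 57.1%. The 13 members with a peak in replicate 1 only made up 18.8% of the set, against 5.37% of all genes, whereas no member and 0.934% of all genes had a peak in replicate 2 only. The other 7 members (10.1%), against 37.5% of all genes, had no promoter peak in either library. Receptors were accessible in 26 of 34 genes and ligands in 23 of 35.

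**Figure D1:**
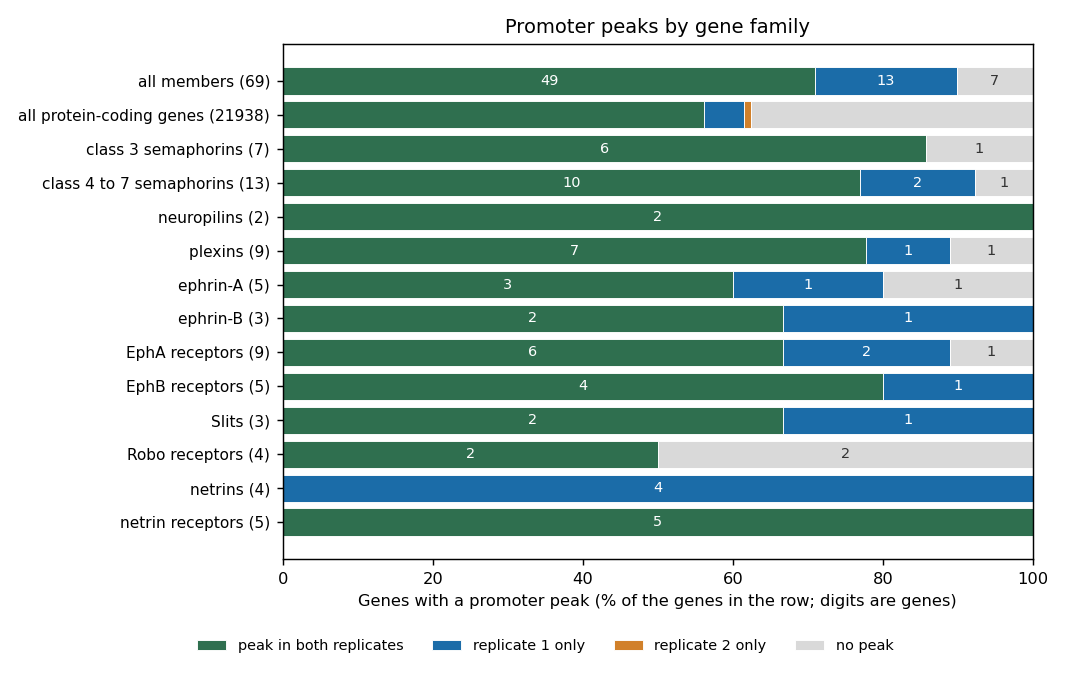
Share of genes with a promoter peak (x axis, % of the genes in each row) for the 69 members, all 21938 protein-coding genes and each family, with the number of genes in parentheses. Colours mark peaks in both replicates, in replicate 1 only, in replicate 2 only and in neither. In the peak lists used here, all 5 netrin receptors had a peak in both replicates, and all 4 netrins had one in replicate 1 only.

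These promoters were open but low. Among the accessible genes, members had a median promoter height of 2.11 in replicate 1 and 1.10 in replicate 2, against 3.73 and 2.11 for all accessible genes. The median geometric mean was 1.61 in members and 2.80 in all accessible genes. By this measure 41 of the 49 accessible members lay below the median of all accessible genes, 20 in the lowest 20% and 10 in the lowest 10%. Only Ephb3 was in the highest 10%. Replicate 1 had the larger deposited height at 45 of the 49 promoters (91.8%), against 95.1% of all accessible genes, and the log2 ratio of replicate 1 over replicate 2 had a median of 0.82 in members and 0.77 in all accessible genes. The exceptions were Ephb1, Ephb3, Sema4a and Sema4f, with ratios between -0.43 and -0.11. Without a stated scaling these ratios cannot be read as differences between the animals. Across the 49 members the heights of both libraries had a Spearman rho of 0.867, against 0.926 over 12324 genes, as a description of promoters that share library and sequence.

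**Figure D2:**
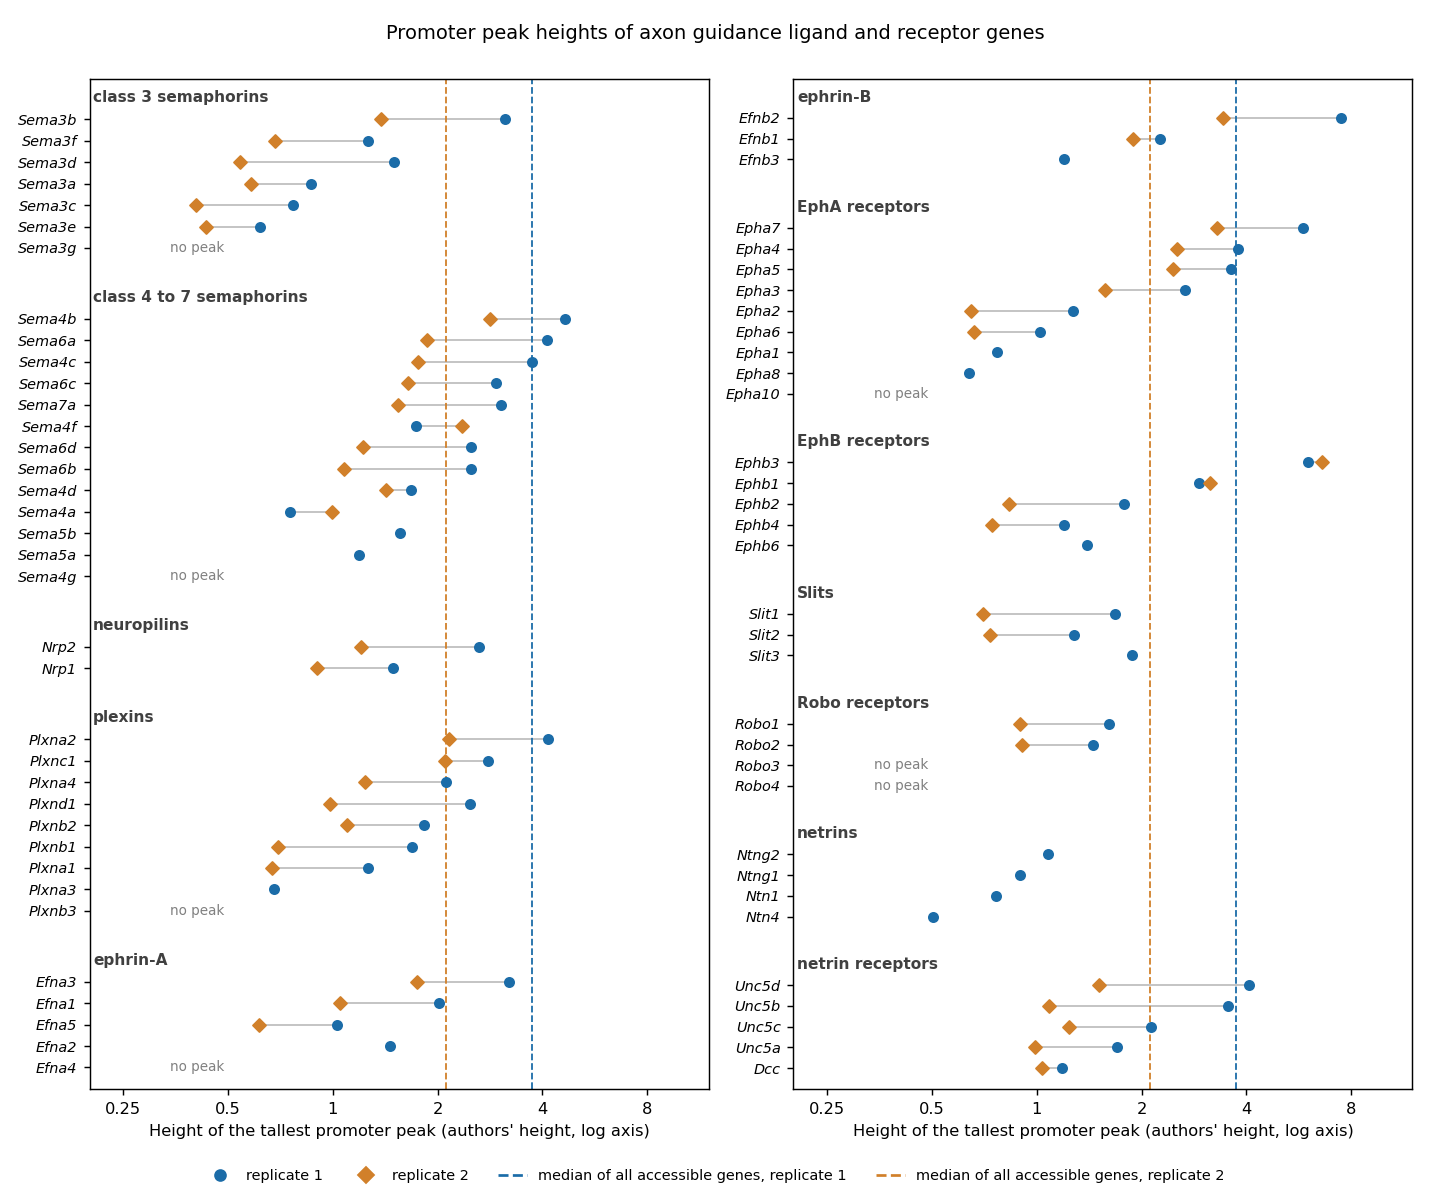
Height of the tallest promoter peak of every member (x axis, authors' height, log scale) in replicate 1 (circles) and replicate 2 (diamonds), by family, and dashed lines at the medians of all accessible genes, 3.73 in replicate 1 and 2.11 in replicate 2. Most members lie left of the line of their replicate, and the tallest are Ephb3 (6.00 and 6.60), Efnb2 (7.48 and 3.44) and Epha7 (5.81 and 3.30).

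The tallest promoters of the set belonged to a pair of Eph receptors, an ephrin and a membrane semaphorin, and stretches of them are shown to display where the footprints lie. A footprint is a short run of bases that is cut less than its surroundings, and one was called shared where footprints of both replicates overlapped by at least 1 bp. The bases inside shared footprints are in capitals. The sequences are from the plus strand of GRCm38.p6, which represents the C57BL/6J allele, and annotated untranslated bases were left out.
Ephb3 (chr16:21204587-21204746): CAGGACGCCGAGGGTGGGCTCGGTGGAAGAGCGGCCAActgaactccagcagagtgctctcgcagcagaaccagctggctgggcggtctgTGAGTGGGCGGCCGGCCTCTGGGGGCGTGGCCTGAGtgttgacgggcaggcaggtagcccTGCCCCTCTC
Efnb2 (chr8:8661269-8661428): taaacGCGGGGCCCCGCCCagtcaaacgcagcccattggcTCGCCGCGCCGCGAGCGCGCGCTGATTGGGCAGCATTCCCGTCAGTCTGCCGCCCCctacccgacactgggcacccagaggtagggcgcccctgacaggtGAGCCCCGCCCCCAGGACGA
Epha7 (chr4:28812971-28813130): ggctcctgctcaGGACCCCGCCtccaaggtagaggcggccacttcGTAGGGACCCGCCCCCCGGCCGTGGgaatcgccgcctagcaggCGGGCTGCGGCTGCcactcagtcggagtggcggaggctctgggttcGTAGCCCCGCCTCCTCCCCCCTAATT
Sema4b (chr7:80187052-80187211): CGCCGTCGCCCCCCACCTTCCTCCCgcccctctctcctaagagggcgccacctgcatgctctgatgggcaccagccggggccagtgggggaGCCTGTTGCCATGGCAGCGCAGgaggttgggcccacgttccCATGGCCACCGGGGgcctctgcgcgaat
In these stretches of 160 bases, shared footprints covered 84 bases at Ephb3, 90 at Efnb2, 75 at Epha7 and 61 at Sema4b. Each stretch was picked as the one with most shared footprint bases in its region, so these counts do not stand for the whole region. The Efnb2 stretch holds the SP/KLF letters GGGGCGGGG (reverse strand) from base 144, and the Sema4b stretch holds the RFX letters GTTGCCATG from base 96, both wholly inside a footprint. Another gene's TSS lay within 1000 bp of a TSS of 13 members, Efnb2 and Epha7 among them, and DNase-seq carries no strand that could tell such neighbours apart.

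The Eph receptors held both the tallest promoter of the set and some of the lowest. Of the 14 Eph receptor genes, 10 were accessible, 6 of 9 EphA and 4 of 5 EphB. Ephb3, a receptor for B-type ephrins, had heights of 6.00 in replicate 1 and 6.60 in replicate 2, the highest replicate 2 value of all members. Epha7 had 5.81 and 3.30, Epha4, which binds A- and B-type ephrins, had 3.78 and 2.53, and Epha5 had 3.61 and 2.46. The promoter of Ephb1 reached 2.92 in replicate 1 and 3.15 in replicate 2. By the geometric mean all 5 of these lay above the median of all accessible genes, while in replicate 1 Ephb1 and Epha5 lay below it. At the low end of the accessible EphA genes, Epha6 had 1.02 and 0.662, and the lowest EphB gene, Ephb4, a receptor known from vein endothelium, had 1.20 and 0.743. Epha1 (0.769), Epha8 (0.639) and Ephb6 (1.39), whose kinase domain is catalytically inactive, had a peak in replicate 1 only. Epha10 had no promoter peak, and its nearest peaks lay 702 bp from a TSS in replicate 1 and 697 bp in replicate 2.

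Of the 8 ephrin genes, 5 were accessible. Efnb2, the ligand of Ephb3, Ephb4 and Epha4, had the tallest replicate 1 promoter peak of the set, 7.48, with 3.44 in replicate 2. Efnb1, which lies on the X chromosome, had 2.25 and 1.89. Among the A-type ephrins Efna3 was the tallest with 3.22 and 1.74, and Efna5, a ligand known from topographic mapping, was the lowest of the accessible ones with 1.03 and 0.615. Efna2 (1.46) and Efnb3 (1.20) had a promoter peak in replicate 1 only. Efna4 had none, with the nearest peaks at 2553 bp and 12013 bp. The loci of Efna1, Efna3 and Efna4 overlap, so a region between them counts for more than 1 gene.

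The secreted class 3 semaphorins were nearly all accessible, at 6 of 7 genes, and had the lowest heights of any family with accessible members. Their median geometric mean was 0.804, against 2.09 for the membrane-bound and anchored classes 4 to 7, which were accessible at 10 of 13 genes. Sema3b was the tallest of class 3 with 3.13 in replicate 1 and 1.37 in replicate 2. Sema3e, the ligand of plexin-D1, had 0.617 and 0.432, the lowest geometric mean of all accessible members. Sema3c (0.769 and 0.405) and Sema3a, a repellent of cortical axons (0.863 and 0.581), followed. Sema3g had no promoter peak, and the nearest peaks lay 2155 bp and 10940 bp away.

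Among the other semaphorins, Sema4b led with 4.63 in replicate 1 and 2.84 in replicate 2, followed by Sema6a with 4.13 and 1.87 and Sema4c with 3.73 and 1.76. Sema4a was the lowest accessible one, with 0.751 and 0.993, and its tallest peaks lay at different TSSs, 2.03 kb inside the gene in replicate 1 and 19.9 kb in replicate 2. Sema5a (1.19) and Sema5b (1.56), the members with thrombospondin repeats, had a peak in replicate 1 only, where the nearest replicate 2 peaks lay 958 bp and 625 bp from a TSS. Sema4g had none.

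Both neuropilins and 7 of 9 plexins were accessible. Nrp2 had heights of 2.62 in replicate 1 and 1.20 in replicate 2, and Nrp1 had 1.49 and 0.898. Plxna2 was the tallest plexin with 4.15 and 2.16, at a TSS 1.61 kb inside the gene. The lowest accessible plexin was Plxna1 with 1.26 and 0.669. Plxna3 (0.678) had a peak in replicate 1 only and Plxnb3 had none, and both lie on the X chromosome. The receptor of Sema7a, Plxnc1, had 2.79 and 2.10 at a TSS 115 kb inside the gene.

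The Slit and Robo genes were low where they were accessible. Slit1 had 1.68 in replicate 1 and 0.702 in replicate 2, and Slit2 had 1.28 and 0.736. Slit3 reached 1.88 in replicate 1, at a TSS 57.1 kb inside the gene, while the nearest replicate 2 peak lay 518 bp from a TSS, just outside the promoter window. Robo1 had 1.61 and 0.898, at a TSS 355 kb inside the gene, and Robo2 had 1.46 and 0.905. Robo3, which acts at midline crossing, and Robo4, known from endothelium, had no promoter peak. Their situations differed, since the nearest peaks lay at 547 bp and 507 bp for Robo3, in a shared region with heights of 3.03 and 2.37, and at 7875 bp and 7935 bp for Robo4.

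In the peak lists used here, the netrins and their receptors were split by replicate. Dcc and the 4 Unc5 genes were accessible in both, with the tallest promoter at Unc5d (4.08 and 1.51) and the lowest at Dcc (1.18 and 1.03). Unc5b had 3.54 in replicate 1 and 1.09 in replicate 2, the largest log2 ratio of the accessible members, 1.71. In contrast, all 4 netrins had a promoter peak in replicate 1 only. Ntn1, the secreted ligand of Dcc, had a height of 0.764 at a TSS 13.9 kb inside the gene. Ntn4, a basement membrane protein, had 0.505, and the membrane-anchored Ntng1 and Ntng2 had 0.898 and 1.07. For Ntng1 the nearest replicate 2 peak lay 1064 bp from a TSS, and for Ntn1 7438 bp. The split depended on the list. A longer list of replicate 2 peaks by the authors held low promoter peaks at Ntn4 (0.277), Ntng1 (0.493) and Ntng2 (0.574), but none at Ntn1.

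The members seen in replicate 1 only had low peaks, with a median replicate 1 height of 1.08 and a range of 0.505 to 1.88, against a median of 0.768 over the 1179 genes of this kind. In the authors' longer peak list of replicate 2, 7 of the 13 had a promoter peak, against 61.1% of those 1179 genes. The deposited false discovery rate (FDR) track lists stretches of bases with an FDR under 0.05, and it held such a stretch in replicate 2 at 8 of the 13 promoters. Only at Slit3 and Plxna3 did the lowest replicate 2 FDR pass 0.001 (1.1e-13 and 7.4e-04). The FDR counts were not made over the 1179 genes, so they cannot tell whether members differ from such genes. Whether the call in 1 library came from its depth was not tested.

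Members had a higher median CpG content at their promoters than all genes, but not among genes with 5 or more TSSs. The CpG observed over expected of the 1000 bp around a TSS, taken as the highest over a gene's TSSs, had a median of 0.738 in members and 0.627 in all genes, and 43 of the 69 members stood at 0.7 or over. Within the classes of CpG content the share of accessible members was no higher than that of other genes. At 0.7 and over it was 81.4% (35 of 43) against 90.4%, from 0.4 to 0.7 it was 60.9% (14 of 23) against 66.3%, and under 0.4 it was 0 of 3 against 7.54%. The 3 members under 0.4 were Sema3g, Robo4 and Plxnb3. In the highest class the accessible members had a median geometric mean of 1.75, against 3.31 in other genes, and 31 of the 35 lay below the median of all such genes.

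**Figure D3:**
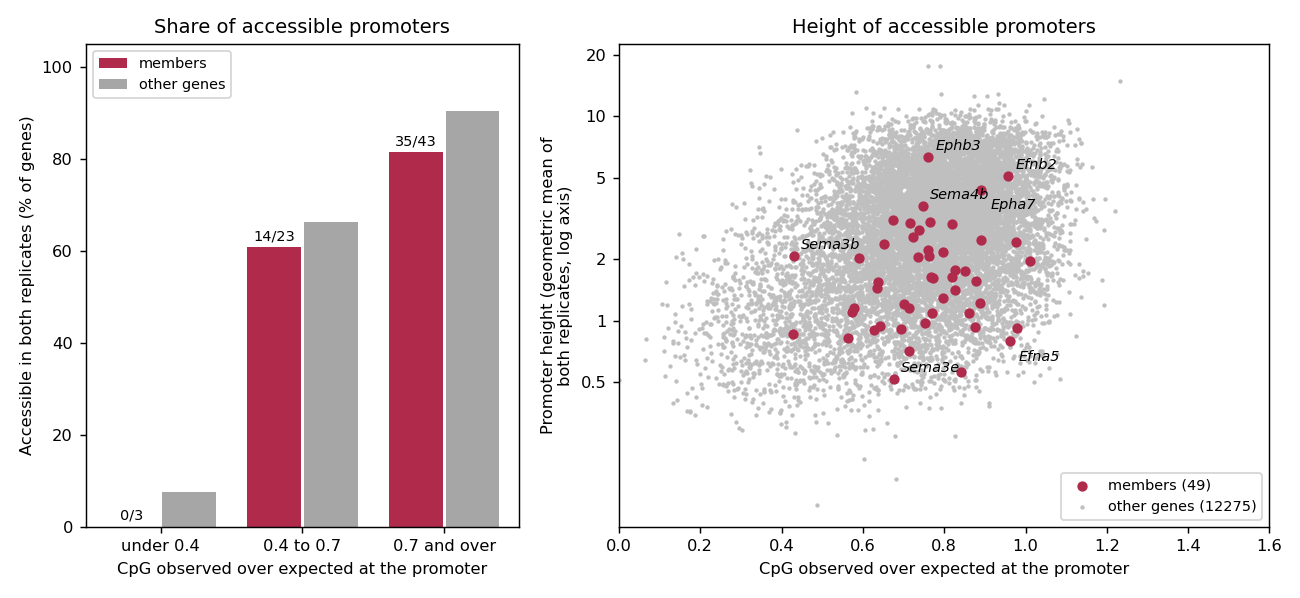
Left, the share of genes accessible in both replicates (y axis, %) by CpG observed over expected, for the members (red, with counts) and other genes (grey). Right, promoter height (y axis, geometric mean of both replicates, log scale) against CpG observed over expected for 49 accessible members and 12275 other genes. The members' bars are lower in each class, and most members lie in the lower part of the cloud, with Ephb3 near its top and Sema3e near its bottom.

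The number of annotated starts also set the members apart, with a median of 5 TSSs against 3 in all genes. With 5 or more TSSs 77.1% of members (27 of 35) were accessible, against 84.0% of other genes, and with 2 to 4 TSSs 75.9% (22 of 29), against 48.5%. None of the 5 members with 1 TSS was accessible, against 25.9% of other genes. They were Epha8, Efna2, Efna4, Efnb3 and Sema3g. For 39 of the 49 accessible members the tallest peaks of both replicates lay within 1 kb of the gene's 5' end. For 5 members both lay over 5 kb inside the gene, at an internal TSS: Sema3b (7.01 kb in replicate 1), Plxnc1 (115 kb), Sema3a (274 kb), Robo1 (355 kb) and Sema6d (521 kb). At least 2 separate shared regions lay at the promoter of 19 members, or 27.5%, against 16.5% of all genes.

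Shared footprints lay at the promoters of 50 members (72.5%), against 54.9% of all genes, with a median of 2 per promoter against 1. Within the classes of CpG content members were not above other genes. At 0.7 and over the share was 88.4% against 89.0%, with a median of 2 against 4. From 0.4 to 0.7 it was 52.2% against 63.6%, with a median of 1 against 2, and under 0.4 it was 0 against 7.24%. The members' promoter footprints came to 157 in all, and their median width was 19 bp, the same as over all shared footprints. Sema4b had 10, Ephb3 9 and Plxnb1, the receptor of Sema4d, 8. Of the 49 accessible members 46 had a shared footprint, and the 3 without were Epha6, Sema3c and Sema3e. Among the 20 others, Ephb6, Ntng1 and Sema5b had 1 each and Slit3 had 2. Promoter height and footprint number had a Spearman rho of 0.681 over the 49 accessible members and 0.677 over 12324 genes, as a description, since both were read from the same libraries.

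Beyond promoters, a distal region was a shared region over 2.0 kb from every annotated TSS, and each gene's locus reached 20 kb beyond its ends. Distal regions were found in 48 of 69 member loci (69.6%), against 46.7% of all genes, with a median of 2 against 0. The member loci were longer, with a median of 98.5 kb against 57.4 kb, and regions per length depended on that length. Pooled over all loci, members had 0.960 regions per 100 kb and all genes 1.12, whereas the median per locus was 0.675 in members and 0 in all genes. Within bands of length, the pooled density was higher in members than in other genes under 100 kb (1.36 against 1.13 per 100 kb) and from 100 to 300 kb (1.54 against 1.21), and lower over 300 kb (0.670 against 0.960). In loci under 100 kb 15 of 35 members (42.9%) had a distal region, against 39.6% of other genes. From 100 to 300 kb it was 16 of 17 (94.1%), against 73.0% (median 2 against 1). In the loci over 300 kb it was 17 of 17, against 91.7%, with a median of 3 against 4. Locus length and the number of distal regions had a Spearman rho of 0.640 over the 69 members and 0.394 over 21869 other genes.

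**Figure D4:**
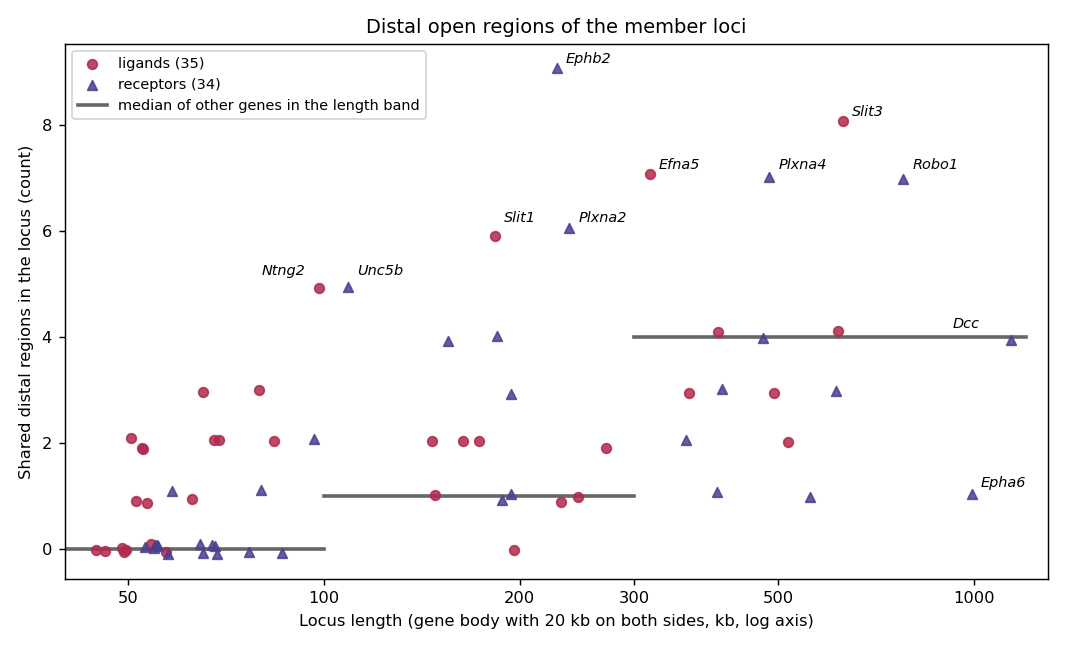
Shared distal regions (y axis, count, points shifted slightly to show overlaps) against locus length (x axis, kb, log scale) for the 35 ligands (circles) and 34 receptors (triangles), with the median of other genes in 3 bands of length (grey lines at 0, 1 and 4). Ephb2 has 9 regions in 228 kb, while Epha6 has 1 in 992 kb.

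The 144 distal regions of the members lay mostly inside the genes. Of them 116 (80.6%) overlapped the gene body, 104 in introns and 12 in an exon, 16 lay upstream and 12 downstream. The gene body held 50.6% of the distal regions counted over all genes, whose loci are shorter. In loci over 300 kb the shares were 93.8% in members and 92.3% in other genes. They were about as tall as distal regions in general, with a median geometric mean of 0.926 against 0.856, and 84.0% held a shared footprint, against 81.3%. Accessible promoters and distal regions did not always go together. A distal region was found in 39 of the 49 loci with an accessible promoter and in 9 of the 20 others. These counts were not matched for locus length. Under 100 kb 21 of 35 members had an accessible promoter and 15 of 35 a distal region. From 100 to 300 kb it was 14 and 16 of 17 members, and over 300 kb 14 and 17 of 17. Whether the split goes beyond locus length was not tested.

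With 5 or more distal regions each, 9 members (13.0%) stood at the top, against 3.52% of all genes, a share not matched for locus length. Slit3, Robo1, Plxna4 and Efna5 have loci over 300 kb, where members had a mean of 3.76 regions and other genes 5.37. Ephb2, Slit1, Plxna2 and Unc5b have loci of 100 to 300 kb, where the means were 2.94 and 1.87. Ntng2 has one under 100 kb, where they were 0.857 and 0.645. Ephb2 had 9 regions, 8 of them in its gene body, where its own promoter peaks were only 1.78 and 0.831 high. Slit3, which had a promoter call in replicate 1 alone, had 8, all in introns, with geometric means from 0.764 to 1.43. Robo1, Plxna4 and Efna5 had 7, Slit1 and Plxna2 had 6, and Unc5b and Ntng2 had 5. A further 6 members had 4 regions: Dcc, Ephb1, Nrp1, Nrp2, Ntng1 and Sema6d. At the other end, 21 members had none, among them Sema3c in a locus of 196 kb.

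**Figure D5:**
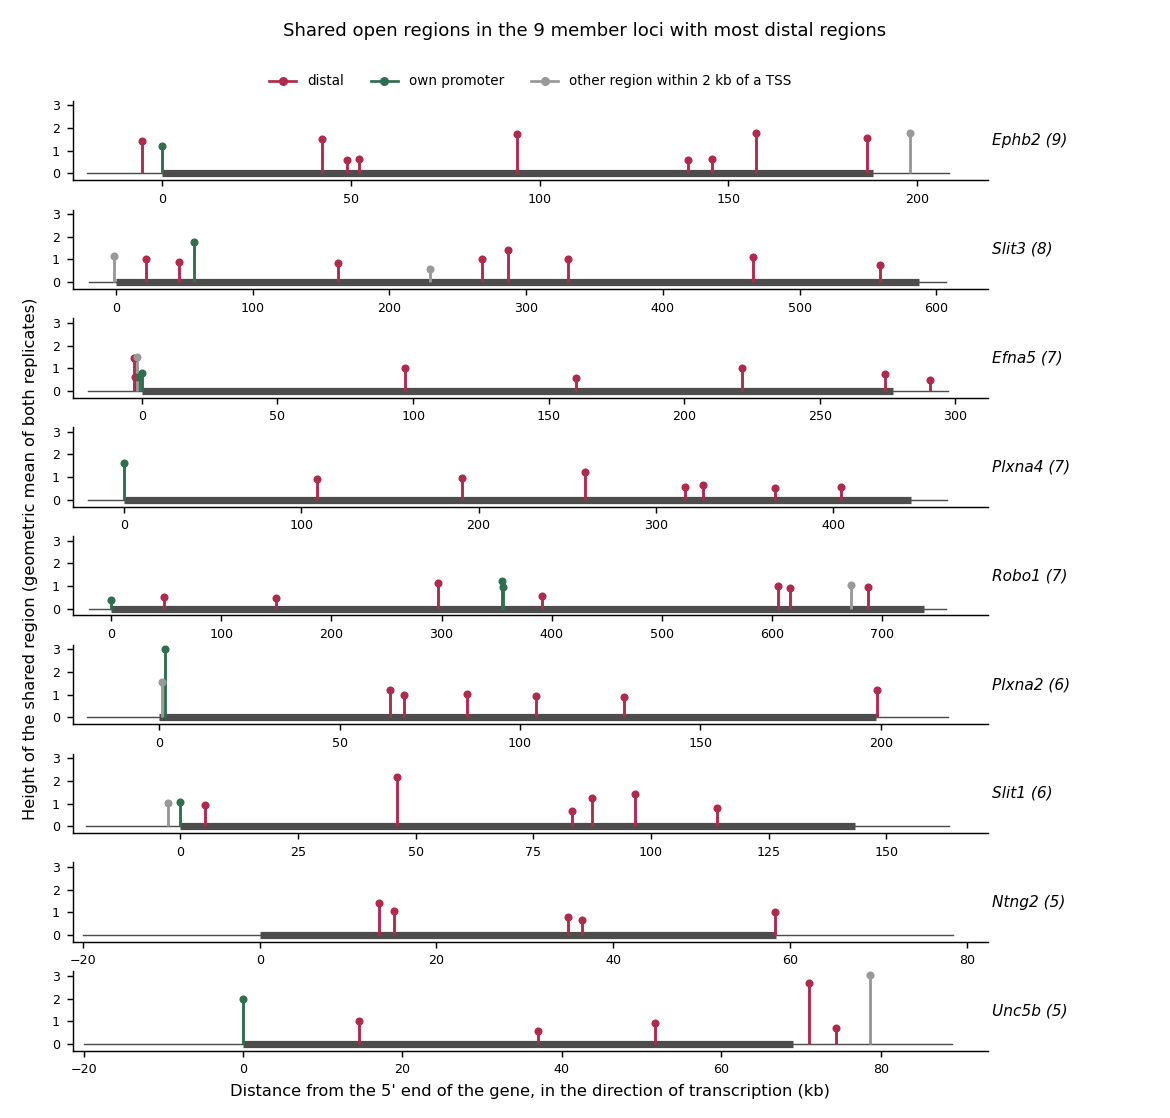
Shared regions in the 9 member loci with most distal regions, by distance from the gene's 5' end in the direction of transcription (x axis, kb, a separate scale for each gene) and geometric mean height (y axis). Thick bars are gene bodies and thin lines the 20 kb flanks, and colours mark distal regions, regions at the gene's own promoter and other regions within 2 kb of a TSS. The 8 distal regions of Slit3 are spread over its introns, and the 5 of Ntng2 stand with no shared promoter region.

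The receptor families for ephrins differed in how densely their loci were filled, and also in locus length, on which density depended. The median locus was 188 kb for EphA and 68.6 kb for EphB. The 9 EphA loci held 6 distal regions, or 0.249 per 100 kb pooled, and the 5 EphB loci held 14, or 1.58 per 100 kb, of which 9 were at Ephb2 and 4 at Ephb1. All 3 Slit loci had distal regions, 17 in all, as did all 5 netrin receptor loci with 17, all 4 netrin loci with 12 and both neuropilin loci with 8. Pooled per 100 kb these came to 1.45, 0.719, 1.36 and 2.35, against 1.12 over all genes, whose loci are shorter. The median loci of these families were 365, 410, 189 and 170 kb. Other genes with loci over 300 kb had 0.960 per 100 kb, and 91.7% of them had a distal region. From 100 to 300 kb other genes had 1.21 per 100 kb, and 73.0% had a distal region. Every netrin locus held regions shared by both replicates, although no netrin promoter was called in both with the peak lists used here. Of the 9 plexin loci 4 had any, with 7 at Plxna4, 6 at Plxna2, 3 at Plxnc1 and 1 at Plxnd1. Class 3 semaphorins had 10 regions in 7 loci and the other semaphorins 22 in 13.

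A pair of distal regions stood far above the rest of the members' regions. The tallest lay 19.5 kb upstream of Efna2, with heights of 8.63 in replicate 1 and 6.87 in replicate 2 and 8 shared footprints, at the 99.9th percentile of all 23895 distal regions. The nearest TSS, at 5.84 kb, belongs to another gene, and the Efna2 promoter itself was called in replicate 1 only. The next, 3.61 kb upstream of Sema3b and 3.09 kb from the nearest TSS, again of another gene, had 9.29 and 4.75. They were followed by a region downstream of Unc5b (3.37 and 2.14), one downstream of Sema4a (2.75 and 1.73) and one in an intron of Slit1 (2.00 and 2.38). The others of the tallest 10 lay in an exon of Efnb2 (3.21 and 1.23), upstream of Plxnd1 (2.35 and 1.57) and Sema7a (2.78 and 1.23), and in introns of Plxnc1 (1.64 and 2.15) and Epha3 (2.59 and 1.28). The Slit1 and Plxnc1 regions were the only ones of the 10 with a larger deposited height in replicate 2.

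Stretches of 160 bases are shown for 4 of them, the tallest 3 and the tallest in an intron, with shared footprint bases in capitals as above (GRCm38.p6, plus strand). Each is again the stretch of its region with most shared footprint bases.
Efna2 (chr10:80159880-80160039): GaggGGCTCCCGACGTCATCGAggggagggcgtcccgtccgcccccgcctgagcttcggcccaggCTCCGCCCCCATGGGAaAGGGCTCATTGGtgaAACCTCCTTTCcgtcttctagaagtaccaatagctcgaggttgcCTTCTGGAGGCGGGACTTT
Sema3b (chr9:107612773-107612932): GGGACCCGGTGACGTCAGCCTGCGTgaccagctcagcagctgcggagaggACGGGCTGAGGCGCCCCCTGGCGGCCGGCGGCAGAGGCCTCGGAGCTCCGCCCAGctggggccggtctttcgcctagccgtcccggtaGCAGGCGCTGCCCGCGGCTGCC
Unc5b (chr10:60760501-60760660): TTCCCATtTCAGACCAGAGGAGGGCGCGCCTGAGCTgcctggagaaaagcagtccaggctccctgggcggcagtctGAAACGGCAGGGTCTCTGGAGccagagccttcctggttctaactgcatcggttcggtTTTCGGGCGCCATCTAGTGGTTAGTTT
Slit1 (chr19:41697520-41697679): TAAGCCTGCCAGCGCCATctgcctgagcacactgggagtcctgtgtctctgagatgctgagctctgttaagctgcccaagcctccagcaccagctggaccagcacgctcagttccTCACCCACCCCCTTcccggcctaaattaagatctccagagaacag
The Sema3b stretch holds the CRE letters TGACGTCA from base 10 and a CTCF match from base 63, and the Unc5b stretch holds a CTCF match from base 142, each of them wholly inside a footprint. The Efna2 stretch holds the EGR letters GCGNGGGCG (reverse strand) from base 40, outside the footprints. The Slit1 stretch holds the NEUROD E-box letters CAGATGG (reverse strand) from base 15, of which 4 of 7 bases are in a footprint.

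Motifs were searched on both strands in 300 bp around the middle of each region. The regions were those at the promoters of the 48 accessible members with a shared region there, and the 144 distal regions. Unc5a, accessible without a shared promoter region, was left out. A match is a string of letters and not a measured binding site. At promoters the SP/KLF letters GGGGCGGGG were found in 14 of 48 members (29.2%), against 23.3% of 12260 genes, and the EGR letters GCGNGGGCG, which can overlap them, in 9 (18.8%), against 12.8%. Counting only matches with at least 50% of their bases in a shared footprint, SP/KLF came to 16.7% of members, against 17.7% of genes, and EGR to 10.4%, against 8.43%. The NRF1 letters GCATGCGC were found at 1 member promoter (2.08%), against 6.75%, the ETS letters CCGGAAGTG at 0, against 4.99%, and the YY1 letters AAGATGGCG at 0, against 4.11%. No member promoter held a CTCF match, against 2.74% of the genes. In distal regions CTCF matches were found in 20 of 144 (13.9%), against 13.3% of all distal regions, and 19 of the 20 overlapped a shared footprint over at least 50% of their bases. Counted so, CTCF matches in footprints were in 13.2% of member regions, against 12.3% of all distal regions. They lay in 16 member loci. The AP-1 letters TGANTCA were found in 24 (16.7%), against 18.5%, and the NEUROD E-box letters CAGATGG in 17 (11.8%), against 13.6%. The CRE letters were found at 1 promoter and 1 distal region, RFX at 1 and 2, MEF2 at 0 and 2, and REST at none.

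Other genes of these pathways were more often open than the members, with taller promoters. Of 66 of them (co-receptors, repulsive guidance molecules and effectors), 58 were accessible in both replicates (87.9%), against 56.2% of all genes. Their median geometric mean was 2.62, against 2.80 in all accessible genes, and 28 of the 58 lay above that median. They also had a higher median CpG observed over expected, 0.839 against 0.738 in members, and a median of 6 TSSs against 5. Among non-member genes with a CpG value of 0.7 and over 90.4% were accessible. Named after their values were seen, the tallest were the kinase gene Gsk3b (10.5 in replicate 1 and 9.16 in replicate 2), Rhoa (8.57 and 9.15), a GTPase that acts on the cytoskeleton, and Cdk5 (9.38 and 8.12), a neuronal kinase. Draxin, Flrt1 and Fes had no promoter peak, and Chl1, Dscam, Mical1, Vav3 and Met had one in replicate 1 only. Dscam, an adhesion receptor, had 13 shared distal regions in a locus of 620 kb. The list was chosen with earlier results of these data known, and its difference from the members was not tested.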

How the data were processed

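DNase-seq was done on left cerebral cortex of 2 mice, 1 library each, which form the single group. Per the labels the files are on mm10. The deposited files of a replicate hold footprints, false discovery rates and 2 lists of peaks. Peak height was used as deposited, a signal whose scaling no label states, and the deposited FDR, a p-value type measure, is listed only below 0.05. Footprints carry no score. Aligner and callers: not given in the sources used here. Read depth is unknown, so no interval or detection limit that needs depth is given.

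Nothing states how the lists of peaks differ, so the shorter was used and the longer tried as an alternative. Overlapping peaks were joined to the highest height (1089 and 522 joined). Peaks of both replicates that overlapped by 1 bp were merged into 44745 shared regions, 23895 of them distal, and footprints likewise into 94158. Genes on chromosomes 1 to 19, X and Y came from GENCODE M21 and sequence from GRCm38.p6. Of the pathway list 1 symbol had no match. Of the 192 member windows of 300 bp searched for motifs, 0 had at least 50% multi-copy 25-mers.

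Counts and medians of members stand beside those of all genes. No p-value was computed, since the members and lists were chosen with earlier results of these data known and the series has 1 group. The text names, per family, the tallest and lowest accessible promoter, the member with most distal regions where it had 4 or more, and every member with a promoter peak in 1 replicate or none. Over all members it names the 10 tallest promoters, the 10 tallest distal regions and the 10 loci with most of them. Ties at 4 regions widened the last group, and Cdk5, Gsk3b, Rhoa and Dscam were named after their values were seen. Scripts, tested on simulated intervals, used Python 3.11.15, numpy 2.4.6, pandas 2.3.3, scipy 1.17.1, pysam 0.24.0, samtools 1.23.1 and matplotlib 3.10.9. Alternatives changed the peak list, promoter and locus widths, overlap, TSS set and replicate.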

Additional observations from a re-analysis of the deposited data

How the results depend on the processing

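Of 41 alternative values, 33 stayed within the spread of the replicates or, for counts, within 1.5 times. This rule was loose. For counts of members 1.5 times reaches past all 69, so only a fall could have been flagged. For medians the spread came from the single-replicate values, which were themselves among the alternatives. The values are therefore given below. With 9 of 9 promoter alternatives the share of accessible members lay above that of all genes, with 39 members (56.5%, against 50.2%) when the lower peaks of each list were left out as the smallest gap. The count was 49 without replicate 1 and 62 without replicate 2, and the median promoter height was 1.10 and 2.11. The median number of distal regions per member locus was 2, and it was 4 with the longer peak lists (1 over all genes), 0 with the taller peaks of each list, and 1 with no flank, with distal set over 5000 bp or with a reciprocal overlap of 50%. Without replicate 1 it was 3, and without replicate 2 it was 2, and the loci with a distal region were 54 in both cases. Member promoters with a footprint were 53 and 65 with 1 library left out. Shared footprints in member loci came to 683, and footprints of a single library to 1868 without replicate 1 and 2334 without replicate 2, since these need no partner. Depth is unknown, so a missing low peak in 1 library may lie below its detection limit, and whether it does was not tested.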
